A study of Drosophila melanogaster with 7 samples.

Results

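Histone messenger RNA made up 6.70 ± 0.341% of all TPM (SD, n = 4) in sorted ovarian cells of Drosophila melanogaster with an Atx2 shRNA and 4.97 ± 0.152% (SD, n = 3) in cells with an mCherry shRNA. As a share of estimated read counts, which are not scaled for length, it was 1.58 ± 0.0686% (SD, n = 4) and 1.26 ± 0.0779% (SD, n = 3), in the same order. The genes described are those whose listed symbol begins with His1, His2A, His2B, His3 or His4, together with BigH1, which gives 36 of 13771 listed genes. Of these, 31 are copies of the replication-dependent genes, with 12 for His1, 4 for His2A, 7 for His2B, 2 for His3 and 6 for His4. The other 5 lie outside the replication-dependent cluster and are His2Av, His3.3A, His3.3B, His4r and BigH1. TPM is a unit scaled for transcript length and to the same total in each library, so it allows levels of different genes to be compared.

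The samples were 4 libraries with an shRNA against Atx2, the fly Ataxin-2 gene for an RNA-binding protein, and 3 libraries with an shRNA against mCherry, a fluorescent protein that flies lack. Both shRNAs were expressed under nos-GAL4::VP16, a driver active in the female germline, and all libraries came from ovarian cells carrying bamP-GFP, a reporter with the promoter of the cyst gene bam. Living GFP-positive cells were sorted after enzymatic dissociation of ovaries, and their RNA was sequenced after removal of ribosomal RNA, without poly(A) selection. The labels give the cell type as germ cell and give neither fly age nor whether libraries of a group came from separate flies, so p-values measure only the spread between these libraries.

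Core histones H2A, H2B, H3 and H4 form the protein spool of the nucleosome, and the linker histone H1 binds the DNA that enters and leaves it. Replication-dependent histone genes are expressed in S phase from tandem repeats, and their mRNAs end in a stem-loop in place of a poly(A) tail, so a library made without poly(A) selection can hold them. Variant genes are spread through the genome, carry introns, give polyadenylated mRNAs and are expressed outside S phase as well. In the fly ovary, nurse cells and follicle cells replicate their DNA many times over without dividing, and nurse cells supply the egg with histone mRNA.

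Library totals ranged from 65262402 to 101809997 estimated counts, and 3 counts corresponded to between 0.0295 and 0.046 CPM, the count scaled to a common library total, a limit that covers counting error only. Atx2 was at 244.7, 211.2, 268.8 and 208.9 CPM with the Atx2 shRNA and at 391.1, 445.1 and 424.4 CPM with the mCherry shRNA, a log2 fold change of -0.85 ± 0.10 (SE; edgeR adjusted p = 0.00166). The 8 germline markers were all detected, and their summed level was 1154.5 to 1594.1 CPM with the Atx2 shRNA and 1660.2 to 2171.3 CPM with the mCherry shRNA, with 1 member higher and 3 lower at an edgeR adjusted p under 0.05, a threshold at which 5.61% of all tested genes were higher and 7.67% lower. The 17 markers of somatic follicle and niche cells, which include eggshell and yolk genes, summed to 4897.1 to 20037.3 CPM with the Atx2 shRNA and 19500.8 to 36663.7 CPM with the mCherry shRNA, with 2 members higher and 5 lower. The 4 muscle markers summed to 469.7 to 676.2 CPM against 261.7 to 405.4 CPM, with all 4 higher, and the 3 hemocyte markers to 265 to 722 CPM against 149.9 to 329.6 CPM, with 0 called by edgeR, 1 at an unadjusted p under 0.05 and 0 by DESeq2. No marker of these 4 lists was at or under 3 counts in every library, so RNA of somatic markers was present beside that of germline markers. The 11 heat shock genes summed to 8255.7 to 10668 CPM in libraries numbered 1 and 2 of either group and to 15488.5 to 16804.2 CPM in those numbered 3 and 4.

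The 31 listed replication-dependent copies are fewer than those annotated in the histone cluster. The Ensembl annotation of BDGP6.54 holds 111 such copies on chromosome arm 2L between 21416953 and 21541681, a span of 124.7 kb, with 23 for His1, 20 for His2A, 23 for His2B, 23 for His3 and 22 for His4. Every listed copy has a single exon, of 412 to 1023 bases. The other annotated copies are not listed, and whether their reads were assigned to listed copies is not known. Near-identical copies share reads, and the deposited values show the division: of 217 values of the listed copies, 14, or 6.45%, lay within 0.02 of a whole number, while all 35 sums over the copies of a type did. For genes outside these copies the share of whole values was 95.7%. The sum over the copies of a type is therefore the measured quantity, and the values of single copies are uncertain.

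All listed replication-dependent copies together had 64375.2, 60596.7, 68947.6 and 63574.9 TPM with the Atx2 shRNA and 48319.8, 47762.7 and 45576.6 TPM with the mCherry shRNA. The groups did not overlap, and the ratio of the means was 1.36. The 5 genes outside the cluster together had 2784.3, 2553.2, 2474.8 and 2690.3 TPM with the Atx2 shRNA and 2560.2, 2366.1 and 2374.8 TPM with the mCherry shRNA, where the groups overlapped. In bulk libraries, fewer cells of a type and less RNA per cell cannot be told apart.

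Copies of the core histones and of the linker histone His1 were tested as 1 summed value per type beside all other genes. In that fit 5.59% of 10490 tested features were higher and 7.7% lower at an edgeR adjusted p under 0.05. Without a term for the replicate number His4 and His2A passed as higher, and His1, His2B and His3 did not pass. With a block for that number His3 passed as higher too, where 13.8% of features were higher and 14.2% lower. The following values are TMM-normalized CPM of these sums.

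Histone H4 pairs with H3 at the centre of the nucleosome. The summed His4 copies had 2121.9, 2426.2, 2620.2 and 2096.6 CPM with the Atx2 shRNA and 1386.3, 1716.5 and 1430 CPM with the mCherry shRNA. Every Atx2 shRNA library lay above every mCherry shRNA library. The log2 fold change was 0.62 ± 0.12 (SE), with a 95% confidence interval of 0.35 to 0.89 and an edgeR adjusted p of 0.0128. It was the largest change of the 5 sums, and in same-numbered libraries the log2 differences were 0.61, 0.50 and 0.87 for numbers 1, 2 and 3. Among libraries numbered 1 and 2 the difference was 0.56 and among those numbered 3 and 4 it was 0.71. Without mCherry shRNA replicate 1 the log2 fold change was 0.56 with an adjusted p of 0.0687, and in the 4 libraries numbered 1 and 2 alone it was 0.55 with an adjusted p of 0.12.

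Histone H3 is the partner of H4. The summed His3 copies had 1933.1, 2262.6, 2369.4 and 1841.3 CPM with the Atx2 shRNA and 1541.1, 1889.4 and 1606.1 CPM with the mCherry shRNA. Atx2 shRNA replicate 4 was lower than mCherry shRNA replicate 2, so the groups overlapped. Their log2 fold change was 0.32 ± 0.12 (SE), with a 95% confidence interval of 0.05 to 0.60 and an edgeR adjusted p of 0.11. A fit with a block for the replicate number, whose contrast rests on replicates 1 to 3, gave 0.38 ± 0.08 (SE; adjusted p = 0.0083), where 13.8% of features were higher and 14.2% lower. In TPM, which allows for effective length, the groups did not overlap, at 8177.1 to 10064.9 TPM with the Atx2 shRNA and 6683.6 to 7193.8 TPM with the mCherry shRNA. Nor did they overlap as a percent of estimated counts, which uses neither length nor TMM scaling. That share was 0.188 to 0.236% with the Atx2 shRNA and 0.156 to 0.183% with the mCherry shRNA.

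Histones H2A and H2B form the dimers on the faces of the nucleosome. The summed His2A copies had 4327.6, 4799.6, 4915.2 and 4543.1 CPM with the Atx2 shRNA and 3486.6, 3749.3 and 3403 CPM with the mCherry shRNA, without overlap. Their log2 fold change was 0.39 ± 0.10 (SE), with a 95% confidence interval of 0.17 to 0.61 and an edgeR adjusted p of 0.032. Leaving out Atx2 shRNA replicate 3 or 4, or any of the 3 mCherry shRNA libraries, ended this call, with log2 fold changes of 0.36 to 0.43 and adjusted p of 0.0693 to 0.14. Among libraries numbered 1 and 2 the log2 difference was 0.33 and among those numbered 3 and 4 it was 0.47. The listed His2A copies share 36 exon bases with a small noncoding RNA on the same strand.

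The summed His2B copies did not pass. They had 3370.8, 3962.3, 3850 and 3845.7 CPM with the Atx2 shRNA and 3174.7, 3624.7 and 3114 CPM with the mCherry shRNA, and replicate 1 with the Atx2 shRNA lay among the mCherry shRNA values. For these sums the log2 fold change was 0.19 ± 0.10 (SE), with a 95% confidence interval of -0.05 to 0.42 and an edgeR adjusted p of 0.266. In TPM the sums were 13265 to 14413.3 with the Atx2 shRNA and 10946.3 to 11652.1 with the mCherry shRNA, which did not overlap. As a percent of estimated counts, which uses no length, the groups overlapped. That share was 0.347 to 0.393% with the Atx2 shRNA and 0.303 to 0.351% with the mCherry shRNA. The effective length of all 7 copies was lower with the Atx2 shRNA, and its part in the TPM was not tested.

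The replication-dependent linker histone His1 stayed closest to the control level. Its summed copies had 1138.5, 1258.6, 1051.2 and 1096.5 CPM with the Atx2 shRNA and 1082.5, 1217.7 and 1083 CPM with the mCherry shRNA, and the groups overlapped over most of their range. Their log2 fold change was 0.01 ± 0.09 (SE), with a 95% confidence interval of -0.20 to 0.22 and an edgeR adjusted p of 0.955. It changed sign without Atx2 shRNA replicate 2 and without mCherry shRNA replicate 1 or 3, at -0.04, -0.01 and -0.02. The upper end of the interval of His1 lay below the lower end of the interval of His4.

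**Figure D1:**
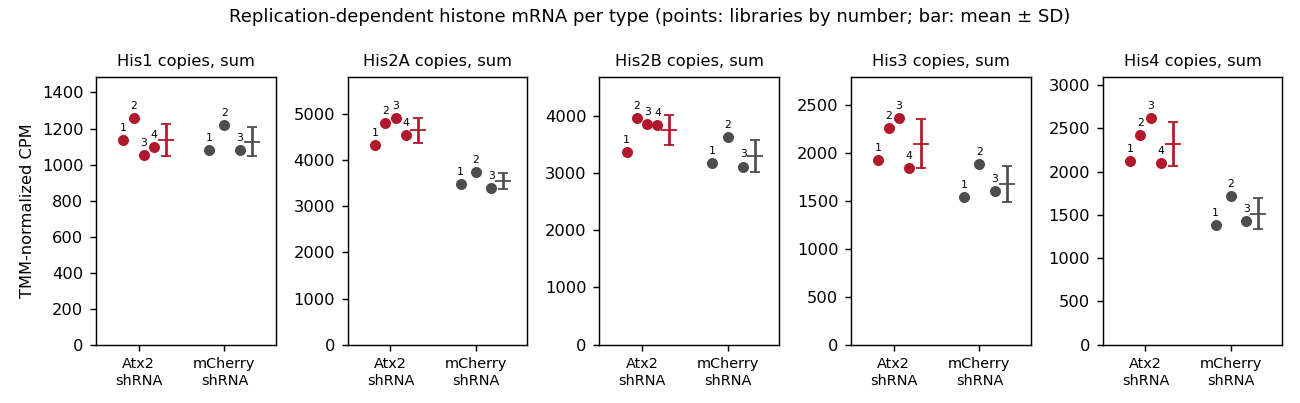
Summed estimated counts of the listed replication-dependent copies of each histone type, in TMM-normalized CPM on axes that start at 0. Points are libraries with their replicate number, 4 with the Atx2 shRNA on the left of each panel and 3 with the mCherry shRNA on the right, and bars give the mean ± SD; His4 and His2A do not overlap between the groups, while His1 averages 1136.2 CPM with the Atx2 shRNA and 1127.8 CPM with the mCherry shRNA.

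Per length, summed His2A was the highest of the types in both groups, at 23693.1 ± 1286.1 TPM with the Atx2 shRNA (SD, n = 4) and 17116 ± 908.1 TPM with the mCherry shRNA (SD, n = 3). Summed His1, which is needed at a lower ratio to the core histones, was the lowest, at 1870.1 ± 115.5 TPM with the Atx2 shRNA (SD, n = 4) and 1745.4 ± 31.1 TPM with the mCherry shRNA (SD, n = 3). His4, at 16100.2 ± 1437 TPM, lay above His2B, at 13763.4 ± 564.4 TPM, with the Atx2 shRNA (SD, n = 4). With the mCherry shRNA the order of this pair was the other way round, at 10058.6 ± 419.6 TPM for His4 and 11387.6 ± 384.7 TPM for His2B (SD, n = 3). In CPM, which takes no account of length, summed His2B averaged more than summed His4 in both groups. The means were 3757.2 and 2316.2 CPM with the Atx2 shRNA and 3304.5 and 1510.9 CPM with the mCherry shRNA. The order of this pair in TPM therefore depends on the effective lengths used for short transcripts, and it was not tested. His3 stood between this pair and His1 in either group, at 8946.8 ± 812.8 TPM with the Atx2 shRNA (SD, n = 4) and 6912.1 ± 259.2 TPM with the mCherry shRNA (SD, n = 3).

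Ratios of TPM within a library do not depend on library scaling, and they are given as descriptions without a test. His1 was 12.4, 12.9, 9.53 and 12.1% of His4 with the Atx2 shRNA and 17.5, 16.9 and 17.7% of His4 with the mCherry shRNA. His3 was 55.5, 57.5, 55.6 and 53.7% of His4 with the Atx2 shRNA and 68.7, 68.4 and 69% of His4 with the mCherry shRNA, so this pair of nucleosome partners stood at a narrow ratio within each group and apart between them. His2B was 58.2 ± 2.58% of His2A with the Atx2 shRNA (SD, n = 4) and 66.6 ± 3.22% with the mCherry shRNA (SD, n = 3). All 3 of these ratios were lower in every Atx2 shRNA library than in any mCherry shRNA library, the last by a small gap, with 60.5% as the highest value with the Atx2 shRNA and 63.7% as the lowest with the mCherry shRNA.

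BigH1 was the gene outside the cluster that fell. It encodes the early embryonic linker histone of the fly, which is also present in germ cells, and lies on arm 3R from 14663450 to 14664822 on the plus strand (FBgn0038252). It had 37.2, 43.4, 30.4 and 36.2 CPM with the Atx2 shRNA and 70.8, 70.3 and 51.8 CPM with the mCherry shRNA. The groups did not overlap, and mCherry shRNA replicate 3 was the lowest of its group. BigH1 had a log2 fold change of -0.80 ± 0.14 (SE), with a 95% confidence interval of -1.12 to -0.48 and an edgeR adjusted p of 0.00874. BigH1 kept its call in all 17 alternatives, with log2 fold changes of -0.94 to -0.72 and adjusted p of at most 0.0498. Relative to His1, BigH1 was at 2.41, 2.52, 2.13 and 2.44% of TPM with the Atx2 shRNA and at 4.94, 4.31 and 3.56% with the mCherry shRNA. The summed germline markers given above were also lower in the Atx2 shRNA libraries, and their part in the BigH1 result was not tested.

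His2Av encodes the sole H2A variant of the fly, which serves at gene promoters and at DNA breaks (FBgn0001197, arm 3R, 26866929 to 26869220, plus strand). It had 349.2, 378, 385.3 and 379.3 CPM with the Atx2 shRNA and 404.6, 415 and 392.4 CPM with the mCherry shRNA. The Atx2 shRNA libraries lay below the others in CPM, by a gap that was small beside the spread, and the groups overlapped in TPM. His2Av had a log2 fold change of -0.12 ± 0.07 (SE), with a 95% confidence interval of -0.27 to 0.03 and an edgeR adjusted p of 0.277. As a share of the summed His2A copies, His2Av was at 2.85, 2.85, 2.81 and 2.99% of TPM with the Atx2 shRNA and at 4.15, 4.14 and 4.23% with the mCherry shRNA. This ratio varied little within a group, and the ratio of the group means was 0.689.

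H3.3, the H3 that is deposited outside replication, is encoded by a pair of genes, of which His3.3A passed the test and His3.3B did not, a difference that was not itself tested. His3.3A (FBgn0014857, arm 2L, 5055058 to 5056149, plus strand) had 121.6, 141.6, 126.8 and 124.6 CPM with the Atx2 shRNA and 91.1, 97.2 and 88.6 CPM with the mCherry shRNA, without overlap. It rose by 0.48 ± 0.08 on the log2 scale (SE), with an edgeR adjusted p of 0.00612. In the 4 libraries numbered 1 and 2 alone the log2 fold change of His3.3A was also 0.48, with an adjusted p of 0.0801, and 168 of its exon bases overlap Nepl3 on the opposite strand.

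His3.3B (FBgn0004828, chromosome X, 9152523 to 9156669, minus strand) was the more abundant H3.3 gene. It had 937.8, 962.2, 849.3 and 927.9 CPM with the Atx2 shRNA and 879.5, 899.7 and 874.1 CPM with the mCherry shRNA. The groups overlapped, and the log2 fold change was 0.06 ± 0.08 (SE), with a 95% confidence interval of -0.12 to 0.23 and an edgeR adjusted p of 0.66. Per length, His3.3A was at 33.6, 35.5, 38.3 and 35.1% of His3.3B with the Atx2 shRNA and at 26.8, 26.9 and 25.7% with the mCherry shRNA, so every Atx2 shRNA library held relatively more His3.3A. Their joint level was 9.81 to 13.5% of the His3 copies with the Atx2 shRNA and 12.8 to 14.7% with the mCherry shRNA, and these ranges overlapped.

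His4r encodes the same H4 protein as the cluster copies from a gene with introns (FBgn0013981, arm 3R, 14625755 to 14626614, plus strand). It had 210, 231.8, 188.9 and 201.1 CPM with the Atx2 shRNA and 176, 192.4 and 176.9 CPM with the mCherry shRNA, and Atx2 shRNA replicate 3 was lower than mCherry shRNA replicate 2. His4r had a log2 fold change of 0.19 ± 0.08 (SE), with a 95% confidence interval of 0.01 to 0.38 and an edgeR adjusted p of 0.152. The fit with the replicate block gave 0.21 ± 0.07 (SE; adjusted p = 0.045), where 13.8% of all tested genes were higher. In TPM the groups did not overlap, at 750.1 to 904.4 with the Atx2 shRNA and 678.4 to 710.1 with the mCherry shRNA. Limma gave an adjusted p of 0.0488 on log2(TPM + 1) and 0.0487 on log2(TPM + 0.1). His4r was at 5.6, 5.58, 4.14 and 5.41% of the His4 copies in TPM with the Atx2 shRNA and at 7.11, 6.45 and 7.05% with the mCherry shRNA. Replicate 3 with the Atx2 shRNA was the lowest library, and the groups did not overlap.

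**Figure D2:**
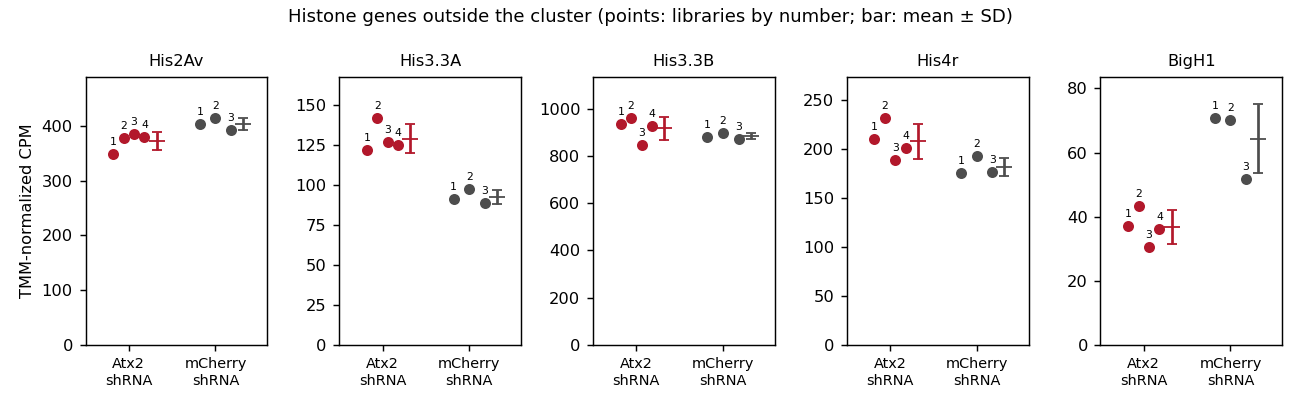
TMM-normalized CPM of the 5 histone genes outside the replication-dependent cluster, on axes that start at 0. Points are libraries with their replicate number, with the Atx2 shRNA on the left and the mCherry shRNA on the right of each panel, and bars give the mean ± SD; His3.3A averages 128.7 CPM against 92.3 CPM and BigH1 36.8 CPM against 64.3 CPM, both without overlap.

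**Figure D3:**
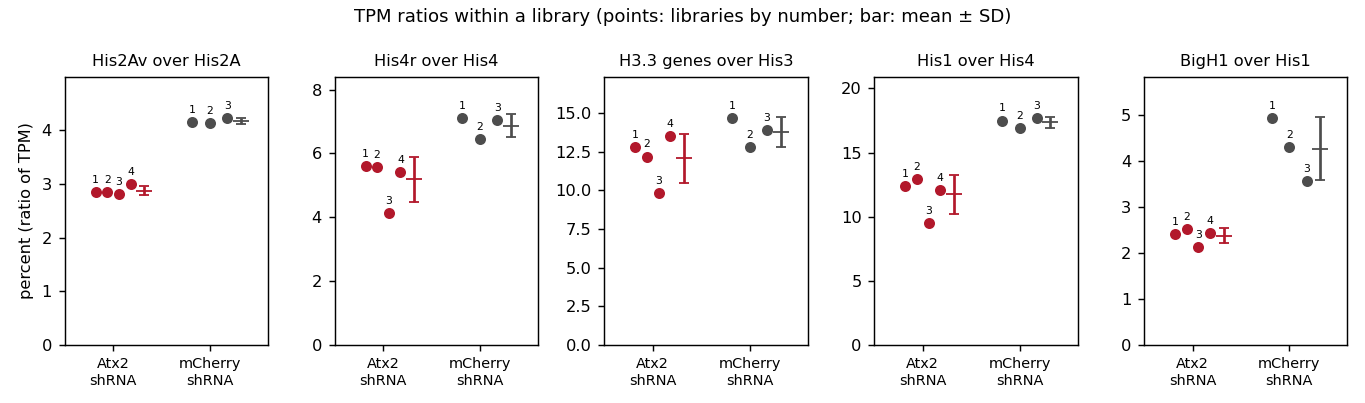
Ratios of TPM within a library, in percent, for each variant over the replication-dependent copies of its type, for His1 over His4 and for BigH1 over His1. Points are libraries with their replicate number, Atx2 shRNA left of mCherry shRNA, and bars give the mean ± SD; of these 5 ratios that of the H3.3 genes over His3 overlaps between the groups, and the others are lower in every Atx2 shRNA library.

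The 34 histone genes with counts above the filter were tested singly among 10514 genes, of which 5.61% were higher and 7.67% lower at an edgeR adjusted p under 0.05. The 2 of 36 below the filter are His4:CG33877 and His4:CG33907, with at most 21.5 estimated counts in a library. Among the tested histone genes 8, or 23.5%, were higher and 2, or 5.88%, were lower. The replication-dependent copies supplied 7 of the higher and 1 of the lower calls. Copies of a type share reads, so their calls are not independent of each other. As sums, His4 and His2A passed in the fit without the replicate block. The calls of single genes stand beside 590 higher and 806 lower among all tested genes. That split turned to 811 higher and 600 lower under upper-quartile scaling, where 9 histone genes were higher and 2 lower. With the replicate block 13 histone genes were higher and 3 lower, where 13.8% and 14.2% of all tested genes were. Without mCherry shRNA replicate 1 there were 3 higher and 1 lower, and without mCherry shRNA replicate 2 there were 5 higher and 1 lower.

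The groups did not overlap for 7 histone genes above and 3 below the mCherry shRNA, where 12.3% of all tested genes lay above and 15.1% below. The median log2 fold change was 0.24 over the tested histone genes, 0.26 over the tested replication-dependent copies and 0.01 over all tested genes. Histone genes are short: 32 of the 34 tested belong to the 2629 genes of shortest effective length. In that length class 8.06% of genes were higher and 3.39% lower, with a median log2 fold change of 0.09, while 4.79% were higher and 9.09% lower among the other genes. The part of length in the histone values was not tested. The effective length of His4:CG33883 relative to the other genes was 0.108, 0.115, 0.111 and 0.109 with the Atx2 shRNA and 0.109, 0.115 and 0.111 with the mCherry shRNA, and the groups overlapped for it and for the other tested copies of His4, His2A and His3. For all 7 copies of His2B it was lower with the Atx2 shRNA, at 0.207 to 0.212 with the Atx2 shRNA and 0.213 to 0.218 with the mCherry shRNA, and for each of the 12 copies of His1 it was lower too, at 0.462 to 0.473 with the Atx2 shRNA and 0.473 to 0.486 with the mCherry shRNA. A shorter effective length gives more TPM from the same count, and its part in the TPM of His2B and His1 was not tested.

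**Figure D4:**
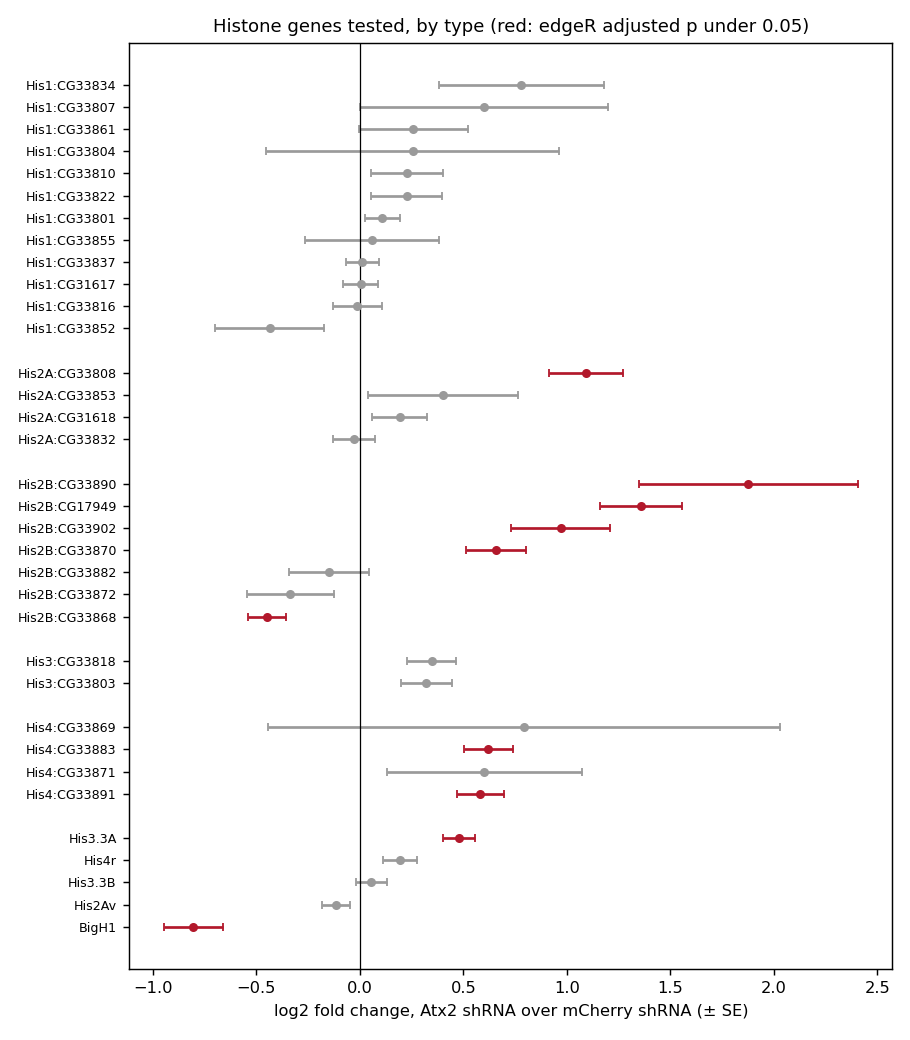
Log2 fold change of Atx2 shRNA over mCherry shRNA with its standard error for the 34 tested histone genes, grouped from top to bottom as His1, His2A, His2B, His3 and His4 copies and the genes outside the cluster. Red marks an edgeR adjusted p under 0.05, which 8 genes reach above 0 and 2 below it; no His1 or His3 copy is among them.

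Most of the counts of a type were assigned to a few of the listed copies, which may hold reads of copies that are not listed. His4:CG33883 held 88.8% of His4 counts, His3:CG33803 held 92.8% of His3 counts and His1:CG33837 held 44.1% of His1 counts, as means over the libraries. His4:CG33883 (arm 2L, 21499324 to 21499736, minus strand) had 1888.4, 2162.9, 2331.4 and 1855.8 CPM with the Atx2 shRNA and 1234.4, 1517.3 and 1267.6 CPM with the mCherry shRNA, without overlap, and rose by 0.62 ± 0.12 on the log2 scale (SE; edgeR adjusted p = 0.0124). His4:CG33891 (arm 2L, 21479042 to 21479454, minus strand) rose by 0.58 ± 0.11 (SE; edgeR adjusted p = 0.0132). Its share of the His4 counts was 10.6 to 11.2% with the Atx2 shRNA and 10.8 to 11.5% with the mCherry shRNA. The shares of these 2 copies stayed level, and each of the other 4 held at most 0.267% of the His4 counts in any library. Without mCherry shRNA replicate 1 the adjusted p was 0.066 for His4:CG33883 and 0.0553 for His4:CG33891.

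The main copy of His3 also kept its share. His3:CG33803 (arm 2L, 21420129 to 21420657, plus strand) held 92.6 to 92.9% of the His3 counts in either group. It had 1796.7, 2095.4, 2196.1 and 1704.6 CPM with the Atx2 shRNA and 1431.5, 1751.7 and 1492.3 CPM with the mCherry shRNA, with overlap, and a log2 fold change of 0.32 ± 0.12 (SE; edgeR adjusted p = 0.111, and 0.00866 with the replicate block). His1:CG33837 (arm 2L, 21491541 to 21492563, plus strand) had 491.7, 539.8, 460.3 and 508.9 CPM with the Atx2 shRNA and 497.3, 520.7 and 470.4 CPM with the mCherry shRNA, a log2 fold change of 0.01 ± 0.08 (SE; edgeR adjusted p = 0.943). It held 42.9 to 46.4% of the His1 counts with the Atx2 shRNA and 42.8 to 45.9% with the mCherry shRNA. Shares of lesser His1 copies varied more, as for His1:CG33852 with 3.41 to 7.2% with the Atx2 shRNA and 6.49 to 9.18% with the mCherry shRNA, and for His1:CG33804 with 0.687 to 3.04% with the Atx2 shRNA and 0.213 to 2.55% with the mCherry shRNA. The groups overlapped in the share of every His1 copy. The sign of the log2 fold change of His1:CG33837 turned without Atx2 shRNA replicate 2 or mCherry shRNA replicate 3, both at -0.03. The 12 His1 copies ranged from -0.44 to 0.78 on the log2 scale with 0 called by edgeR, 0 at an unadjusted p under 0.05 and 0 by DESeq2. With the replicate block 2 were called, both higher, where 13.8% of all tested genes were higher. Of these 2, His1:CG33834 had only 0.731 to 1.75 CPM with the Atx2 shRNA and 0.414 to 0.912 CPM with the mCherry shRNA. Of the 2 His3 copies 0 were called by edgeR, while both were higher at an unadjusted p under 0.05 and both by DESeq2. Among all genes DESeq2 called 1033 higher, where edgeR called 590.

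The His2A and His2B counts were divided among copies in shares that, for several copies, did not overlap between the groups. His2A:CG33832 (arm 2L, 21483227 to 21483719, plus strand) took 41.2, 37.8, 38 and 45.7% of the His2A counts with the Atx2 shRNA and 50.8, 56.4 and 55.2% with the mCherry shRNA. His2A:CG33808 (arm 2L, 21433862 to 21434337, plus strand) took 40.4, 43.4, 47.4 and 36% with the Atx2 shRNA and 33.1, 22.6 and 21.7% with the mCherry shRNA. Neither share overlapped between the groups. His2A:CG33808 is annotated with 476 exon bases and the other listed His2A copies with 493.

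In CPM, His2A:CG33808 had 1747.5, 2081.1, 2330.2 and 1637.3 with the Atx2 shRNA and 1155.3, 849.3 and 738 with the mCherry shRNA. It rose by 1.09 ± 0.18 on the log2 scale (SE; edgeR adjusted p = 0.00622) and kept the call in all 17 alternatives. These alternatives all use the deposited division of reads among copies, so they do not cover its uncertainty. His2A:CG33832 had 1783.1, 1814.6, 1865.6 and 2076.8 CPM with the Atx2 shRNA and 1771.5, 2116 and 1879.4 CPM with the mCherry shRNA. Its groups overlapped, and edgeR gave it a log2 change of -0.03 ± 0.10 (SE; adjusted p = 0.879), with a positive sign under upper-quartile scaling, in TPM and without Atx2 shRNA replicate 1 or mCherry shRNA replicate 2.

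Of the 7 His2B copies, 4 were higher and 1 was lower by edgeR, where 5.61% of all tested genes were higher and 7.67% lower. These copies share reads, so the calls are not independent, and the His2B sum did not pass. His2B:CG17949 (arm 2L, 21423014 to 21423608, minus strand) had 223.3, 229.5, 212.2 and 123.6 CPM with the Atx2 shRNA and 73.5, 85.1 and 72.2 CPM with the mCherry shRNA. Replicate 4 with the Atx2 shRNA lay between the other 3 and the mCherry shRNA group. It rose by 1.36 ± 0.20 on the log2 scale (SE; edgeR adjusted p = 0.0038) and kept the call in all 17 alternatives, all of which use the same deposited division of reads among copies.

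His2B:CG33870 (arm 2L, 21532461 to 21533055, minus strand), the most abundant His2B copy, had 1064.7, 1184.1, 1511.7 and 1553.2 CPM with the Atx2 shRNA and 914.9, 826.2 and 783 CPM with the mCherry shRNA. The groups did not overlap, and the gene rose by 0.66 ± 0.14 (SE; edgeR adjusted p = 0.0201), while without mCherry shRNA replicate 1 or 2 the adjusted p was 0.0525 or 0.0829. The edgeR adjusted p was 0.192 in the libraries numbered 1 and 2 alone and 0.0537 in the fit at the transcript level. Among libraries numbered 1 and 2 the log2 difference was 0.37 and among those numbered 3 and 4 it was 0.97. His2B:CG33868 (arm 2L, 21537505 to 21538099, minus strand) had 408.1, 394.3, 389.7 and 479.1 CPM with the Atx2 shRNA and 570.5, 609.5 and 531.6 CPM with the mCherry shRNA. Its groups did not overlap, and it fell by 0.45 on the log2 scale (log2 fold change -0.45 ± 0.09 SE; edgeR adjusted p = 0.0162), while without mCherry shRNA replicate 1 or 2 the adjusted p was 0.0687 or 0.0744. Limma gave it an adjusted p of 0.0636 on log2(TPM + 1) and 0.0574 on log2(TPM + 0.1).

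His2B:CG33902 (arm 2L, 21452211 to 21452805, minus strand) had 280.6, 398.5, 291.8 and 177.1 CPM with the Atx2 shRNA and 133.6, 176.8 and 129.3 CPM with the mCherry shRNA. The groups almost met, at replicate 4 with the Atx2 shRNA and replicate 2 with the mCherry shRNA, and the rise was 0.97 ± 0.24 in log2 (SE; edgeR adjusted p = 0.0308). The call ended without Atx2 shRNA replicate 1 or 3 and without any of the 3 mCherry shRNA libraries, with adjusted p of 0.0565 to 0.106. It also ended in the fit at the transcript level, with an edgeR adjusted p of 0.0798. His2B:CG33890 (arm 2L, 21482504 to 21483098, minus strand) had 195.2, 153.5, 152.6 and 26.5 CPM with the Atx2 shRNA and 33.4, 36.9 and 37.6 CPM with the mCherry shRNA. Atx2 shRNA replicate 4 was lower than all 3 mCherry shRNA libraries, and its share of the His2B counts was 0.69% there against 3.87 to 5.79% in the other 3. Its change was 1.88 ± 0.53 in log2 (SE; edgeR adjusted p = 0.0477), and leaving out any library other than Atx2 shRNA replicate 4 gave adjusted p of 0.08 to 0.145. The edgeR fit at the transcript level gave an adjusted p of 0.11. Limma gave 0.12 on log2(TPM + 1) and 0.107 on log2(TPM + 0.1). Over the His2B copies, gains and losses of counts sat beside a sum whose log2 fold change was 0.19.

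**Figure D5:**
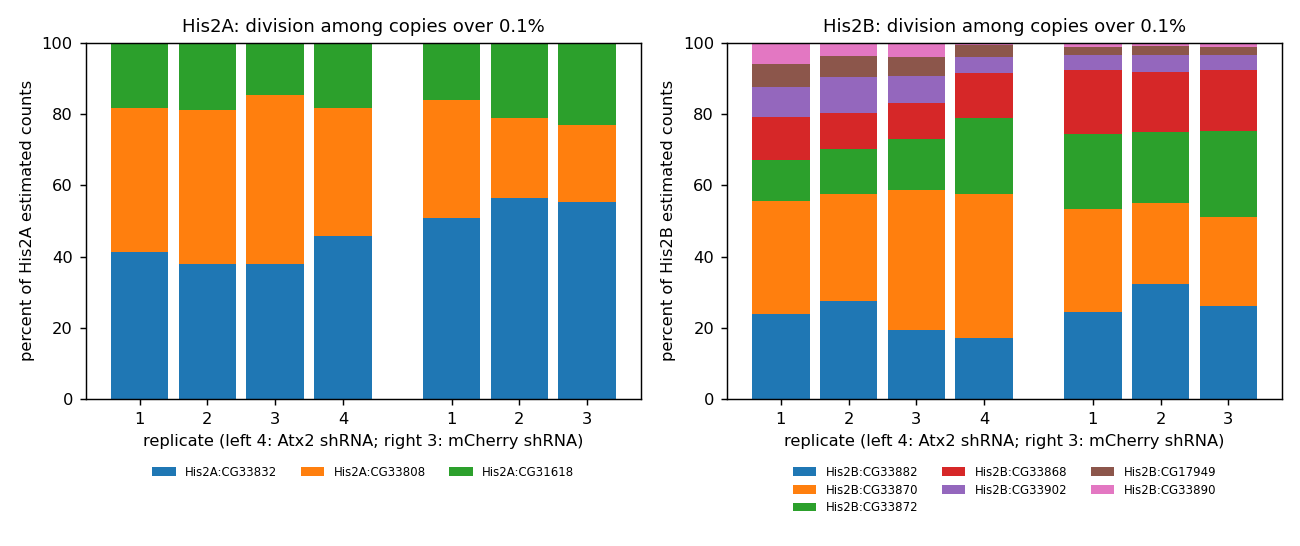
Division of the estimated counts of His2A (left) and His2B (right) among the listed copies that hold over 0.1% of their type, in percent of the counts of the type. Each bar is a library, with 4 of the Atx2 shRNA left of 3 of the mCherry shRNA in each panel; His2A:CG33808 takes 36 to 47.4% with the Atx2 shRNA and 21.7 to 33.1% with the mCherry shRNA, and His2B:CG33890 is smallest in Atx2 shRNA replicate 4.

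At the transcript level, where 2.05% of 21728 tested transcripts were higher and 2.66% lower at an edgeR adjusted p under 0.05, 1 transcript of the genes outside the cluster was higher and 2 were lower. FBtr0333537, the main transcript of His3.3A, had 94.4, 115.6, 100.3 and 100.4 CPM with the Atx2 shRNA and 73.5, 75.6 and 71.6 CPM with the mCherry shRNA. It rose by 0.48 ± 0.09 (SE; edgeR adjusted p = 0.0278, and 0.0557 with the replicate block), where 1.33% of transcripts were higher and 1.68% lower with the block, and leaving out Atx2 shRNA replicate 3 or 4 or any mCherry shRNA library gave adjusted p of 0.0601 to 0.106. FBtr0082969, the sole transcript of BigH1, had a log2 fold change of -0.80 ± 0.16 (SE; edgeR adjusted p = 0.0363), and without Atx2 shRNA replicate 1, 3 or 4 or mCherry shRNA replicate 1 or 2 the adjusted p was 0.0732 to 0.129.

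His3.3B transcripts differ in their untranslated ends. FBtr0071347, a minor form with a longer 5′ untranslated region, had 6.16, 7.82, 5.98 and 6.21 CPM with the Atx2 shRNA and 11.3, 15 and 13 CPM with the mCherry shRNA. It fell by 1.000 ± 0.159 on the log2 scale (SE; edgeR adjusted p = 0.0205), and without Atx2 shRNA replicate 1, 3 or 4 or mCherry shRNA replicate 1 or 2 the adjusted p was 0.0511 to 0.0787. FBtr0340343, with a 3′ untranslated region of 1589 bases, held 61, 56.9, 65.1 and 61.5% of the counts of His3.3B with the Atx2 shRNA and 52.9, 54.8 and 57.9% with the mCherry shRNA. FBtr0071345, with a 3′ untranslated region of 874 bases, held 38 ± 3.32% with the Atx2 shRNA (SD, n = 4) and 43.1 ± 2.59% with the mCherry shRNA (SD, n = 3). Both shares overlapped between the groups, and for FBtr0340343 the test gave a log2 fold change of 0.20 ± 0.06 (SE; edgeR adjusted p = 0.109). For His2Av the shorter transcript FBtr0085062 held 88.8 to 90% with the Atx2 shRNA and 88 to 90.4% with the mCherry shRNA. For His4r the leading transcript FBtr0334029 held 67 to 71.8% and 68.5 to 74.1%, in the same order of groups.

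Genes that act on histone mRNA and on histones were counted in 3 lists. Of 16 genes of histone mRNA transcription and 3′ end processing, all tested, 1 was higher and 2 were lower, with a median log2 fold change of 0.00 against 0.01 for all tested genes, of which 5.61% were higher and 7.67% lower. With the replicate block 1 was higher and 4 were lower, where 13.8% of all tested genes were higher and 14.2% lower. FLASH, a component of the histone locus body that takes part in 3′ end cleavage, had 22.5, 23.8, 20.9 and 22.9 CPM with the Atx2 shRNA and 30.4, 28.6 and 25.4 CPM with the mCherry shRNA, a log2 fold change of -0.32 ± 0.08 (SE; edgeR adjusted p = 0.0365). Cbp20, a subunit of the nuclear cap-binding complex, had a log2 fold change of 0.47 ± 0.11 (SE; edgeR adjusted p = 0.0306), and Trl, the GAGA factor, of -0.23 ± 0.07 (SE; edgeR adjusted p = 0.0492). Slbp, which binds the histone stem-loop, had 53.4, 56, 47.6 and 50.3 CPM with the Atx2 shRNA and 67.8, 65.3 and 56.2 CPM with the mCherry shRNA. The groups did not overlap for Slbp, with a change of -0.28 ± 0.09 in log2 (SE; edgeR adjusted p = 0.0722, and 0.027 with the replicate block), and it is named here after its values were seen.

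Of 24 histone chaperone and exchange genes, all tested, 0 were higher and 3 were lower by edgeR. Of all tested genes 5.61% were higher and 7.67% lower. At an unadjusted p under 0.05 and by DESeq2 0 were higher too, and the median log2 fold change was 0.00. With the replicate block 0 were higher and 7 lower, where 13.8% of all tested genes were higher and 14.2% lower. With limma on log2(TPM + 1) 0 were lower, where 438 of all genes were lower. The 3 were asf1, a chaperone of H3 and H4, at -0.33 ± 0.07, Caf1-105, a subunit of the replication-coupled assembly factor, at -0.32 ± 0.08, and yem, a partner of the H3.3 chaperone Hira, at -0.39 ± 0.09 (log2 fold change ± SE; edgeR adjusted p of 0.0178, 0.0264 and 0.0211). Their groups did not overlap, with 50.8 to 56.4 CPM for asf1 with the Atx2 shRNA and 64.8 to 68.9 CPM with the mCherry shRNA. Hira itself had a log2 fold change of 0.09 ± 0.09 (SE; edgeR adjusted p = 0.539) and was added to the named genes after its value was seen.

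Of 17 genes of S phase, all tested, 1 was higher and 4 were lower, where 5.61% of all tested genes were higher and 7.67% lower, with a median log2 fold change of -0.19. With the replicate block 1 was higher and 8 were lower, where 13.8% of all tested genes were higher and 14.2% lower. PCNA, the sliding clamp of DNA polymerases, had 210.7, 243.5, 217.6 and 239.3 CPM with the Atx2 shRNA and 195.4, 185.4 and 188.5 CPM with the mCherry shRNA, a log2 fold change of 0.26 ± 0.07 (SE; edgeR adjusted p = 0.0469). RnrS, the small subunit of ribonucleotide reductase, had 176.2, 187.2, 197.6 and 192.7 CPM with the Atx2 shRNA and 246.1, 228.4 and 240.2 CPM with the mCherry shRNA, a log2 fold change of -0.34 ± 0.07 (SE; edgeR adjusted p = 0.014). The other lower members were Cdk2, the kinase partner of Cyclin E, at -0.46 ± 0.10, dup, the fly Cdt1, at -0.43 ± 0.08, and Cdc6, another origin licensing factor, at -0.25 ± 0.07 (log2 fold change ± SE; edgeR adjusted p of 0.0178, 0.0133 and 0.0431). The 11 genes of these lists that passed the threshold and are named kept their sign in every alternative but not their calls. Limma on either TPM scale ended 8 of the calls, all but those of Cbp20, PCNA and Cdk2, with adjusted p of 0.0556 to 0.244, and upper-quartile scaling ended those of FLASH, Trl, Caf1-105 and Cdc6. The libraries numbered 1 and 2 alone ended all but that of Cdk2, and testing without a filter on low counts ended those of Cdc6, PCNA and Trl. Leaving out mCherry shRNA replicate 1, 2 or 3 ended 11, 9 and 4 of these calls, and leaving out Atx2 shRNA replicate 1, 2, 3 or 4 ended 3, 5, 7 and 7, with adjusted p up to 0.175.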

How the data were processed

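Reads were demultiplexed with bcl2fastq 2.20, trimmed with Trim Galore 0.6.7 and cutadapt 2.10 and quantified with Salmon 1.9.0, per the submitters' processing notes. The index, genome build, annotation, use of strand and treatment of identical copies are not given in the sources used here. The authors deposited estimated counts, which per the labels are not normalized, and TPM values for 13771 genes and 29939 transcripts. Estimated counts were rounded, genes under the limits of filterByExpr (count 10, total 15) were dropped, and TMM-scaled values were tested two-sided in R 4.3.3 with edgeR 4.0.16 (quasi-likelihood), without covariates. P-values were adjusted by Benjamini-Hochberg over all tested features, with a threshold of 0.05. CPM values are TMM-normalized. The standard error is the size of the log2 fold change divided by the square root of the F statistic. Copies of a type were summed before a separate fit with all other genes. The scripts were tested on simulated data.

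Alternatives were DESeq2 1.42.0, DESeq2 size factors, upper-quartile scaling, other filters, limma 3.58.1 on log2(TPM + 1) and log2(TPM + 0.1), the replicate number as a block, each library left out, and libraries numbered 1 and 2 alone. Deviations from the group means correlated across genes in same-numbered libraries (Pearson r of 0.246, 0.514 and 0.638). In libraries of the 2 groups with unlike numbers r was -0.542 to 0.191. Deviations within a group cancel out, so a positive r in same-numbered libraries by itself lowers r between unlike numbers. The contrast is thus partly built in, and the r of 0.246 for number 1 was close to 0.191. The numbers, which come from the sample titles, were taken to pair the samples in the fit with the block, and the pairing was not tested. The edgeR test without covariates leaves this pairing out. Library pairs within a group differed by more than sampling noise (chi-square per degree of freedom 45.6 to 235.8).

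Positions come from the Ensembl release 115 annotation of BDGP6.54, matched by FlyBase ID. The histone genes and the gene lists were chosen with earlier results of these data known. Named were all genes outside the cluster, the sums, copies past an adjusted p of 0.05, the most abundant copy of each type, and of each list the members past 0.05 with a mean of at least 5 CPM. DLP in the chaperone list is the older symbol of Daxx.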

Additional observations from a re-analysis of the deposited data

Results flagged for a closer look

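In 34 sets of values of the 4 Atx2 shRNA libraries, 3 held a library set apart from the others by a Dixon test, which chance gives in about 1 of 20 sets. His2B:CG17949 was at 123.6 CPM in replicate 4, against 212.2 to 229.5 CPM in the other 3. His4r was at 4.14% of the TPM of the His4 copies in replicate 3, against 5.41 to 5.6% in the other 3. The His3 copies were at 583.2% of the TPM of the His1 copies in replicate 3, against 444.7 to 449.5% in the other 3. Their cause was not tested.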

How the results depend on the processing

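With the replicate block 13 histone genes were called higher (11 of them replication-dependent copies), 2 replication-dependent copies lower, and 1448 of all genes higher and 1493 lower; the log2 fold change of the His3 sum was 0.38, and 0 variant transcripts were called higher. The block changed no other call of a sum. DESeq2 called 1033 genes higher and 3 variant transcripts higher, without a count over all transcripts to set beside the latter. It gave 0.33 for the His3 sum, which was also past the threshold at 0.37 with limma on either TPM scale. Limma on either TPM scale called 1 histone gene lower, 0 replication-dependent copies lower and 438 of all genes lower. In libraries numbered 1 and 2 alone 4 histone genes were higher, all 4 replication-dependent, 0 sums were called, 295 of all genes were higher and 332 lower, and the sums of His2A and His4 were at 0.33 and 0.55. Leaving out each library gave 3 to 8 histone genes higher and 1 to 3 lower, 2 to 7 replication-dependent copies higher and 0 to 2 lower, 182 to 610 of all genes higher and 283 to 844 lower, 0 to 2 sums higher, 0 to 1 variant transcripts higher and 0 to 2 lower. Over these fits the sums ranged from -0.0416 to 0.0687 for His1, 0.36 to 0.43 for His2A, 0.26 to 0.42 for His3 and 0.55 to 0.72 for His4. The His1 sum was at -0.0416, -0.0121 and -0.0186 without Atx2 shRNA replicate 2, mCherry shRNA replicate 1 and mCherry shRNA replicate 3. His1:CG33837 ranged from -0.0268 to 0.0498 and was negative without Atx2 shRNA replicate 2 and mCherry shRNA replicate 3. His2A:CG33832 ranged from -0.078 to 0.0453 and was positive without Atx2 shRNA replicate 1 and mCherry shRNA replicate 2, as it was under upper-quartile scaling (0.0286) and with limma on either TPM scale (0.0388). The cause of these changes was not tested. Atx2 kept its call in all 16 alternatives. Reads shared by near-identical copies, and the 3 mCherry shRNA libraries, limit the precision.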
